A study of Oryza sativa with 12 samples.

Results

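Rice genes of the auxin response, of auxin transport and of auxin conjugation were followed through desiccation stress (DS) with expression arrays. The set held every gene whose symbol or synonym in the RefSeq gene table is ARF, IAA, SAUR or YUCCA with a number, PIN with a number and an optional letter, or GH3 with or without a number. This rule found 71 genes, and 43 of them had a probe set of their own, out of 15140 such genes on the arrays. Measured were 12 of 23 *ARF* genes, 19 of 28 *IAA* genes, 4 of 9 *PIN* genes, 7 of 9 *GH3* genes and the single *SAUR* gene found, *OsSAUR39*. The other 28 genes, among them *OsYUCCA1*, *OsPIN1A*, *OsPIN1B*, *OsPIN2*, *OsIAA1* and *OsIAA9*, were not paired with any probe set in the probe table and were not analysed here. No filter on low values was applied, so that all 43 genes entered every test.

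All seedlings were 3 weeks old and of the cultivar Pusa Basmati 1, and there were 12 arrays in 4 groups of 3. Wild type (WT) and a transgenic line (H49) were either held in water (WT_CT, H49_CT) or laid on tissue paper to dry (WT_DS, H49_DS), in both cases for 3 h. In the sample labels the drying is called drought, and they name the transgenic seedlings by the over-expressed gene, *OsHOX24*, a homeobox gene of the HD-ZIP I class. The name H49 comes from the study's text, in which the construct carries the coding region of *OsHOX24* behind the *UBQ* promoter, which is active throughout the plant. A single transgenic line was on the arrays, and the methods call the arrays of a group independent biological replicates. RNA came from seedlings, so that fewer cells of a type and less RNA per cell cannot be told apart in any value that follows.

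Auxin acts through a short chain of proteins. Auxin response factors (ARFs) bind auxin response elements in promoters and raise or lower transcription, and AUX/IAA proteins hold the activating ARFs in check with co-repressors of the TOPLESS family. When auxin joins a TIR1/AFB receptor to an AUX/IAA protein, the AUX/IAA protein is ubiquitinated and degraded, and the ARFs are freed. Many *AUX/IAA*, *GH3* and *SAUR* genes are themselves switched on by auxin within minutes to hours. GH3 enzymes join auxin or jasmonate to amino acids, PIN proteins export auxin from the cytoplasm, and YUCCA enzymes make indole-3-acetic acid (IAA), the main natural auxin.

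The arrays labelled H49 did not have more *OsHOX24* signal than those of WT. Its log2 values without stress were 5.61, 4.11 and 2.83 in WT_CT and 4.56, 3.57 and 3.23 in H49_CT, and it rose after DS in both genotypes to between 9.38 and 10.29. Without stress, H49 minus WT was -0.39 on the log2 scale, with a wide 95% interval from -1.57 to 0.78 (SD 1.39 in WT_CT). Over both treatments it was -0.22 (95% interval -1.06 to 0.61). Whether the probe set detects the transcript of the construct is not given in the sources used here. The study also measured the transgene in its lines by real-time PCR, which was not analysed here. For these reasons every comparison between genotypes below is one between arrays by their label. Some markers of shoot and of root were lower after DS, and others were not called. Of the green shoot markers measured, 1 of 2 fell in each genotype, and their mean log2 value went from between 7.58 and 8.55 in WT_CT to between 6.16 and 6.75 in WT_DS, and from between 7.69 and 8.52 to between 6.34 and 7.19 in H49. Of the root markers, 2 of 4 fell in each genotype, with list means of 5.43 to 5.67 in WT_CT, 4.64 to 4.76 in WT_DS, 5.38 to 5.54 in H49_CT and 4.54 to 4.90 in H49_DS. Those that fell were *LSI2* and *LSI6*. How specific each gene of this list is to the root was not tested. Over both genotypes *PHT1;11* was at 0.26 and *SHR1* at -0.26, and neither was called. None of 6 seed endosperm and 5 flower markers was called after DS, and their list means lay between 2.70 and 3.35 in all groups. Over both genotypes *MADS8*, at 0.58, and *GLUB2*, at 0.38, passed the limma test (adjusted p = 0.0069 and 0.043) but stayed under 2-fold. Not every gene of these lists was low. Over all arrays *GLUA1*, of the endosperm list, had a mean of 6.59. *MADS16*, of the flower list, had a mean of 5.12. Levels of different probe sets cannot be compared, so that these means give no order of abundance among genes. The part of the shifts of shoot and root markers in the values of the auxin genes was not tested.

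After DS, auxin genes mostly did not pass the test, and those that did were mostly lower. Genes are said to have risen or fallen, or to be called, where the limma p, adjusted over all genes, was no more than 0.05 and the difference reached 2-fold, which is 1 on the log2 scale. In WT, 7 of the 43 genes fell (16.3%) and 1 rose (2.33%), while 8.47% of all genes fell and 4.93% rose. In H49, 8 fell (18.6%) and 1 rose, against 9.3% and 5.26% of all genes. Over both genotypes together 7 fell and 1 rose, against 8.86% and 5.1%. The genes that fell in both genotypes were *OsARF3*, *OsARF5*, *OsIAA3*, *OsIAA10*, *OsIAA17*, *OsIAA21* and *OsGH3.5*, and the gene that rose in both was *OsIAA18*. *OsIAA16* was called in H49 and not in WT, and this difference between genotypes did not pass its own test, as given below.

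With the same limit on the adjusted p and no limit on the fold, 15 of the 43 genes were lower and 5 higher over both genotypes, against 26.9% and 15.3% of all genes. The median difference after DS was -0.24 over the 43 genes and -0.05 over all genes. On the arrays themselves, 9 of the 43 genes (20.9%) had all 6 DS values below all 6 control values, which was the case for 16.4% of all genes. In 3 genes, *OsARF15*, *OsIAA18* and *OsGH3.8*, all 6 DS values lay above all 6 control values, against 7.95% of all genes. The split depended on the scaling of the arrays. When every array was centred on its own median over the 15140 genes, the median difference of all genes over both genotypes moved from -0.05 to 0.16. Then the auxin genes called were 5 lower and 2 higher in WT, and 6 lower and 3 higher in H49. Over both genotypes together 5 were lower and 3 higher. The matching shares of all genes were 5.11% lower and 7.27% higher in WT, and 5.85% and 7.5% in H49. Over both genotypes, 5.48% of all genes fell on that scale and 7.09% rose, and the fallen share of all called genes went from 63.5% to 43.6%. The median of the auxin genes was then -0.03. Centring shifts the difference of every gene by the same amount, so that the order of these medians could not change. With quantile normalization over all genes 7 auxin genes fell (16.3%) and 2 rose (4.65%) over both genotypes, against 6.51% and 6.05% of all genes. The fallen share of all called genes was then 51.8%.

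**Figure D1:**
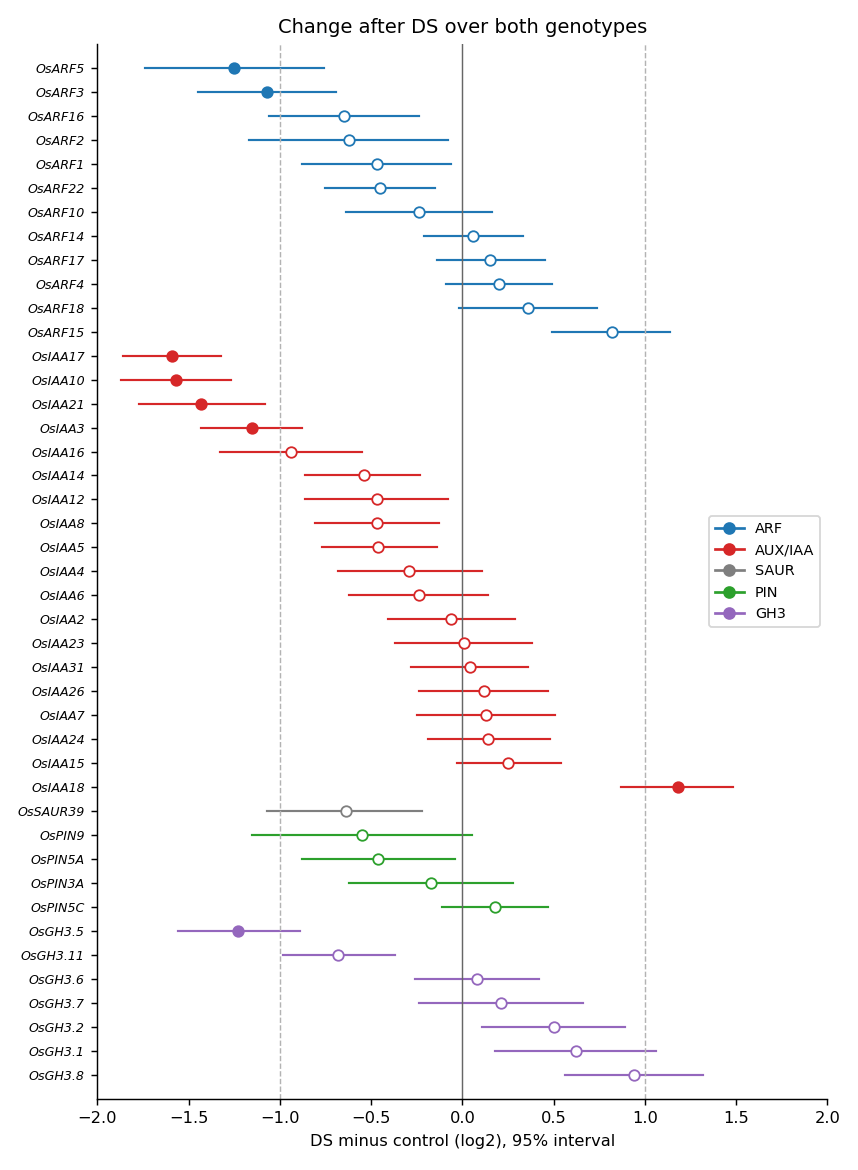
Difference after DS (DS minus control, log2 scale, 95% interval) of the 43 auxin genes over both genotypes, ordered within families. Filled points mark called genes, and dashed lines mark a 2-fold difference. The 7 fallen genes lie between -1.59 and -1.07, and *OsIAA18* lies at 1.18.

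*AUX/IAA* genes, the repressors of the response, held most of the called genes and were also the largest family measured. Of 19 measured, 4 fell in WT (21.1%, against 8.47% of all genes) and 5 in H49 (26.3%, against 9.3%). In each genotype 1 rose (5.26%), near the 4.93% of all genes in WT and 5.26% in H49. Their median difference was -0.39 in WT and -0.37 in H49. With centred arrays 3 fell and 1 rose in WT, and 5 fell and 1 rose in H49, so that falls remained the more frequent in both. Of all genes, 5.11% fell and 7.27% rose in WT on that scale, and 5.85% and 7.5% in H49.

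*OsIAA17* had the lowest difference of all 43 genes over both genotypes. Its log2 values were 10.03, 10.10 and 10.36 in WT_CT, 8.47, 8.81 and 8.75 in WT_DS, 10.29, 10.11 and 10.40 in H49_CT, and 8.51, 8.43 and 8.76 in H49_DS. The lowest control array was more than 1 log2 unit above the highest DS array. *OsIAA17* fell by 1.49 in WT, a fold of 2.81 (standard error 0.18, adjusted p = 8.2e-05), while in H49 it fell by 1.70, a fold of 3.24 (adjusted p = 2.8e-05).

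*OsIAA10*, whose protein is bound by a capsid protein of rice dwarf virus, had log2 values of 8.34, 8.23 and 8.53 in WT_CT and of 6.93, 6.96 and 6.96 in WT_DS. In H49 it had 8.23, 8.42 and 8.42 without stress and 6.30, 6.56 and 7.06 after DS. Every DS array lay below every control array, and the WT_DS arrays lay almost on top of each other while the H49_DS arrays spread more widely (SD 0.02 and 0.38). *OsIAA10* fell by 1.42 in WT, a fold of 2.67 (standard error 0.20, adjusted p = 0.00025), while in H49 it fell by 1.71, a fold of 3.28 (adjusted p = 5.1e-05).

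*OsIAA21* had 7.0, 7.13 and 6.54 in WT_CT and 5.59, 5.42 and 5.54 in WT_DS, and 6.87, 6.65 and 7.30 in H49_CT and 5.52, 5.74 and 5.14 in H49_DS. The groups did not overlap in either genotype, with the control arrays more spread than those of WT_DS. In WT *OsIAA21* fell by 1.38, a fold of 2.59 (standard error 0.23, adjusted p = 0.00079), while in H49 it fell by 1.48, a fold of 2.79 (adjusted p = 0.00044). With any single array left out, *OsIAA10*, *OsIAA17* and *OsIAA21* were still called in both genotypes.

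*OsIAA3* lay closer to the threshold in WT. Its log2 values were 8.49, 8.66 and 8.53 in WT_CT and 7.48, 7.62 and 7.51 in WT_DS, and 8.71, 8.54 and 8.72 in H49_CT and 7.39, 7.04 and 7.68 in H49_DS. All DS arrays were below all control arrays, and the replicates of WT lay close together. It fell by 1.02 in WT, a fold of 2.03 (standard error 0.18, adjusted p = 0.0013), while in H49 it fell by 1.29, a fold of 2.44 (adjusted p = 0.00026). Since the fold in WT is so near 2, the call in WT was lost without WT_CT replicate 2 (-0.97) or WT_DS replicate 1 (-0.99), and with centred arrays (-0.81), while the adjusted p passed in each.

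*OsIAA16* was dim on these arrays. It had 3.30, 3.36 and 3.65 in WT_CT and 2.67, 2.78 and 2.88 in WT_DS, and 3.5, 4.02 and 3.03 in H49_CT and 2.03, 2.11 and 2.74 in H49_DS. The groups did not overlap in either genotype, yet H49_CT replicate 3, at 3.03, was near the highest DS array, at 2.88. It fell by 1.22 in H49, a fold of 2.33 (standard error 0.25, adjusted p = 0.0032), whereas the difference of -0.66 in WT was not called (adjusted p = 0.072). Without H49_CT replicate 2, the highest of its group, the value in H49 was -0.97 and the call was lost. The H49 response minus the WT response was -0.56, with a 95% interval from -1.34 to 0.21 and an adjusted p of 1, so that the genotypes were not shown to differ.

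*OsIAA18* was the *AUX/IAA* gene that went the other way. Its log2 values were 5.63, 5.42 and 5.16 in WT_CT and 6.77, 6.77 and 6.52 in WT_DS, and 5.39, 5.38 and 5.72 in H49_CT and 6.44, 6.36 and 6.89 in H49_DS. All 6 DS arrays were above all 6 control arrays. *OsIAA18* rose by 1.29 in WT, a fold of 2.44 (standard error 0.20, adjusted p = 0.00054), while in H49 it rose by 1.07, a fold of 2.1 (adjusted p = 0.0016). With H49_DS replicate 3, the highest array of its group, left out, the difference in H49 was 0.90 and under the 2-fold minimum.

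**Figure D2:**
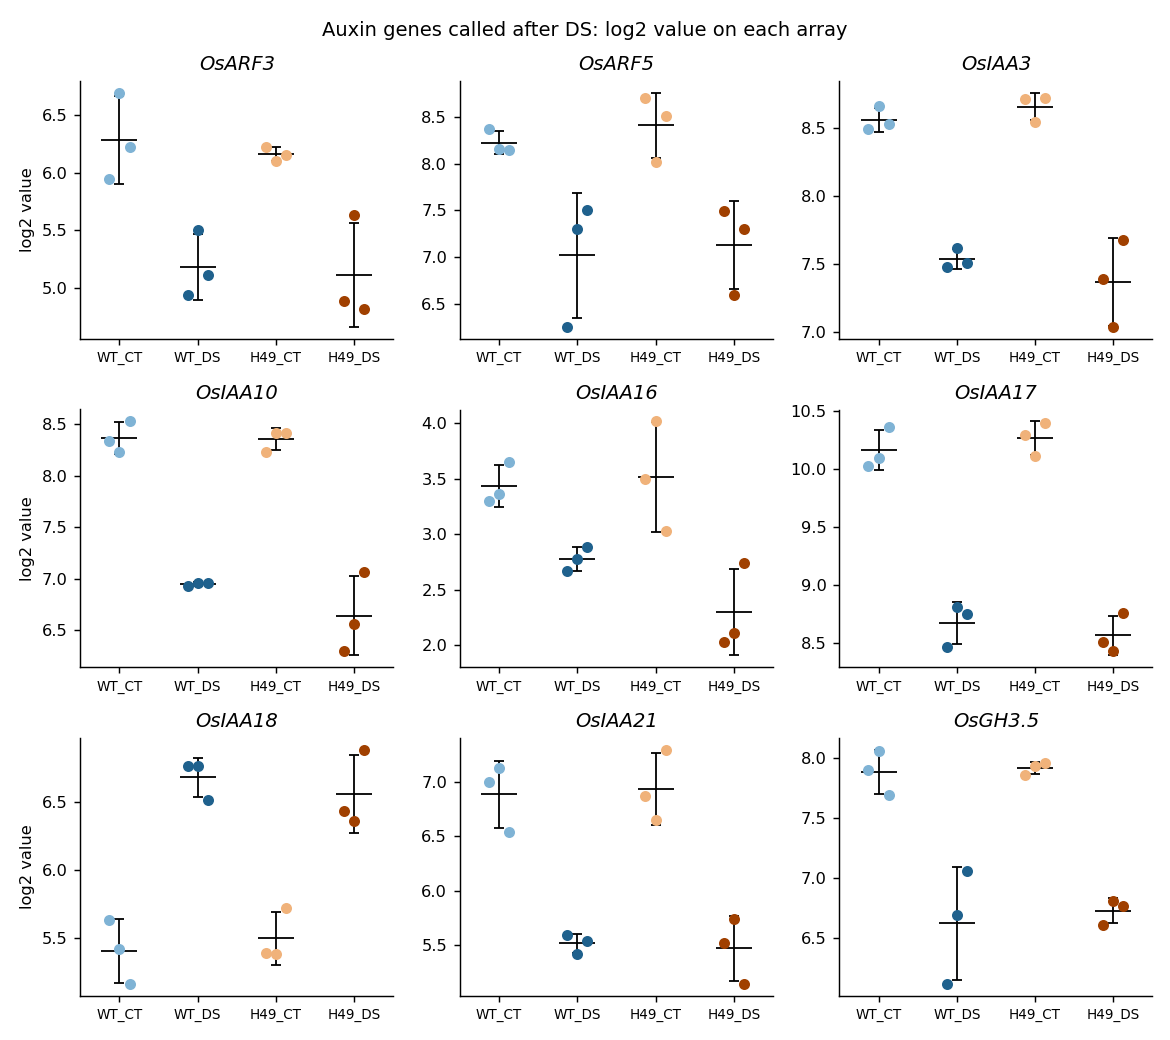
Log2 value on each array of the 9 auxin genes called after DS, with the mean (horizontal line) and SD (bars) of each group of 3 arrays. In each panel the 6 DS arrays do not overlap the 6 control arrays. *OsIAA18* is the gene with higher values after DS.

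Among the *AUX/IAA* genes that were not called, *OsIAA14* had all 6 DS values below all 6 control values, with differences of -0.42 in WT and -0.67 in H49 (adjusted p = 0.15 and 0.028). *OsIAA8*, *OsIAA12* and *OsIAA5* were at -0.47, -0.47 and -0.46 over both genotypes (adjusted p = 0.03, 0.051 and 0.022). The value of *OsIAA6*, a gene tied to drought tolerance in rice, was -0.24 (adjusted p = 0.29), with 7.33 on WT_DS replicate 1 and 8.02 to 8.41 on the other DS arrays. *OsIAA23*, which is needed to maintain the quiescent centre of the root, was at 0.01 (standard error 0.17), and *OsIAA2* at -0.06 (standard error 0.16). The values of *OsIAA7*, *OsIAA15*, *OsIAA24*, *OsIAA26* and *OsIAA31* lay between 0.04 and 0.25, and that of *OsIAA4* was -0.29.

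*OsIAA5* was the one measured gene with more than 1 probe set of its own, and these went in opposite directions. On the brighter, which stands for the gene in the counts above, the values were 7.38, 7.59 and 7.29 in WT_CT, 7.28, 6.75 and 6.98 in WT_DS, 7.71, 7.51 and 7.22 in H49_CT, and 7.08, 6.69 and 7.19 in H49_DS. On the dimmer they were 4.21, 4.88 and 4.59 in WT_CT, 5.53, 5.25 and 5.35 in WT_DS, 4.83, 5.25 and 5.07 in H49_CT, and 5.64, 5.80 and 5.96 in H49_DS. Neither overlapped between treatments within a genotype. Over both genotypes the brighter probe set differed by -0.46 (standard error 0.15, adjusted p over all probe sets = 0.04) and the dimmer by 0.78 (standard error 0.14, adjusted p = 0.0022). Where on the transcripts of *OsIAA5* each probe set lies is not given in the sources used here, and with the mean of both the value was 0.16, so that no direction is given for this gene.

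**Figure D3:**
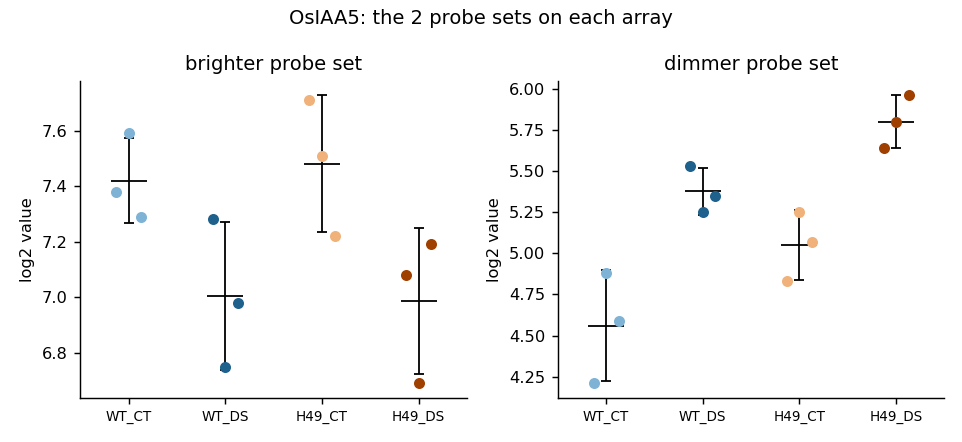
Log2 value of the 2 probe sets of *OsIAA5* on each array, with the mean (horizontal line) and SD (bars) of each group of 3 arrays. The panels have their own axes, since levels of different probe sets cannot be compared. The brighter is lower after DS in both genotypes and the dimmer higher.

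Of the 12 *ARF* genes measured, 2 fell in each genotype (16.7%, against 8.47% of all genes in WT and 9.3% in H49). None rose, against 4.93% and 5.26% of all genes. Their median difference was -0.34 in WT and -0.35 in H49. With centred arrays, or with quantile normalization, 1 fell and none rose in WT, whereas 1 fell and 1 rose in H49, the latter being *OsARF15*. The fallen and risen shares of all genes on these scales lay between 5.11% and 7.5%. Rice ARFs are commonly grouped, mostly by likeness to those of *Arabidopsis*, into activators with a glutamine-rich middle region and repressors. Some transcripts of repressors are cut through trans-acting siRNA or miR160. This grouping was applied after the values were seen and was not tested. Of 3 measured activators, *OsARF5*, *OsARF16* and *OsARF17*, 1 fell, and of 4 targets of trans-acting siRNA, *OsARF2*, *OsARF3*, *OsARF14* and *OsARF15*, 1 fell. None of 3 targets of miR160 (*OsARF10*, *OsARF18* and *OsARF22*) and none of 2 other repressors (*OsARF1* and *OsARF4*) was called.

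*OsARF5*, of the activator group, had log2 values of 8.37, 8.16 and 8.15 in WT_CT and of 6.25, 7.30 and 7.5 in WT_DS. In H49 it had 8.70, 8.02 and 8.51 without stress and 7.49, 6.59 and 7.30 after DS. DS arrays were below control arrays throughout, but they were among the most spread of all members, with 1 low array in each genotype (pooled SD 0.45, where the median over members was 0.29). *OsARF5* fell by 1.21 in WT, a fold of 2.32 (standard error 0.32, adjusted p = 0.014), while in H49 it fell by 1.28, a fold of 2.44 (adjusted p = 0.0093). Without WT_DS replicate 1, the lowest array, the value in WT was -0.83 and the call was lost, as it was with replicate number 1 omitted in all groups (-0.76). By Student's t-test, after adjustment, *OsARF5* passed in neither genotype. The methods name this test in general, and for the arrays they refer to an earlier study.

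*OsARF3*, whose transcript is a target of trans-acting siRNA, had 5.94, 6.69 and 6.22 in WT_CT and 4.94, 5.50 and 5.11 in WT_DS. Its values in H49 were 6.22, 6.10 and 6.15 without stress and 4.89, 5.63 and 4.82 after DS. The groups did not overlap, and replicate 2 was the highest DS array in both genotypes. *OsARF3* fell by 1.09 in WT, a fold of 2.13 (standard error 0.25, adjusted p = 0.0065), while in H49 it fell by 1.05, a fold of 2.06 (adjusted p = 0.0077). Both calls lie near the 2-fold minimum. The call in WT was lost without WT_CT replicate 2 (-0.89) or WT_DS replicate 1 (-0.97), and that in H49 without H49_DS replicate 1 (-0.93) or replicate 3 (-0.90). With centred arrays the values were -0.89 in WT and -0.83 in H49, and no call remained.

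The other *ARF* genes of these groups were not called, and their differences lay on both sides of 0. *OsARF15*, an *ETTIN*-like gene and like *OsARF3* a target of trans-acting siRNA, had 6.10 to 6.46 on the control arrays and 6.63 to 7.38 on the DS arrays, without overlap. Its difference was 0.77 in WT and 0.87 in H49 (standard error 0.21, adjusted p = 0.017 and 0.0083), which passed the adjusted p and not the 2-fold minimum. *OsARF2*, the other *ETTIN*-like gene, had 4.45, 5.45 and 5.65 in WT_CT and 5.09, 3.92 and 4.05 in WT_DS, and 4.87, 5.06 and 5.53 in H49_CT and 4.43, 4.64 and 5.14 in H49_DS. Its groups overlapped in both genotypes, and its pooled SD of 0.52 was among the 3 highest of the members. The difference of -0.83 in WT was not called (adjusted p = 0.11), but it reached -1.20 without either WT_CT replicate 1 or WT_DS replicate 1, and was called there.

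*OsARF16*, an activator known from responses of rice roots to phosphate and iron shortage, had 5.96, 5.82 and 5.59 in WT_CT and 5.35, 4.50 and 4.77 in WT_DS. Its values in H49 were 5.75, 6.42 and 6.22 without stress and 5.31, 5.76 and 6.16 after DS. WT arrays did not overlap between treatments, while H49 arrays did. The difference was -0.92 in WT (standard error 0.27, adjusted p = 0.023) and -0.39 in H49 (adjusted p = 0.32), and neither was called. Without WT_CT replicate 3 or WT_DS replicate 1 the value in WT was -1.02 or -1.16 and the gene was called. *OsARF4*, the *ARF* gene with the brightest probe set and a regulator of grain size, had 9.49 to 10.00 on the control arrays and 9.80 to 10.12 on the DS arrays, and its difference of 0.20 was not called (adjusted p = 0.25). *OsARF22* was at -0.45 over both genotypes (adjusted p = 0.018), *OsARF1* at -0.47 and *OsARF10* at -0.24, whereas *OsARF14*, *OsARF17* and *OsARF18* were at 0.06, 0.15 and 0.36.

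**Figure D4:**
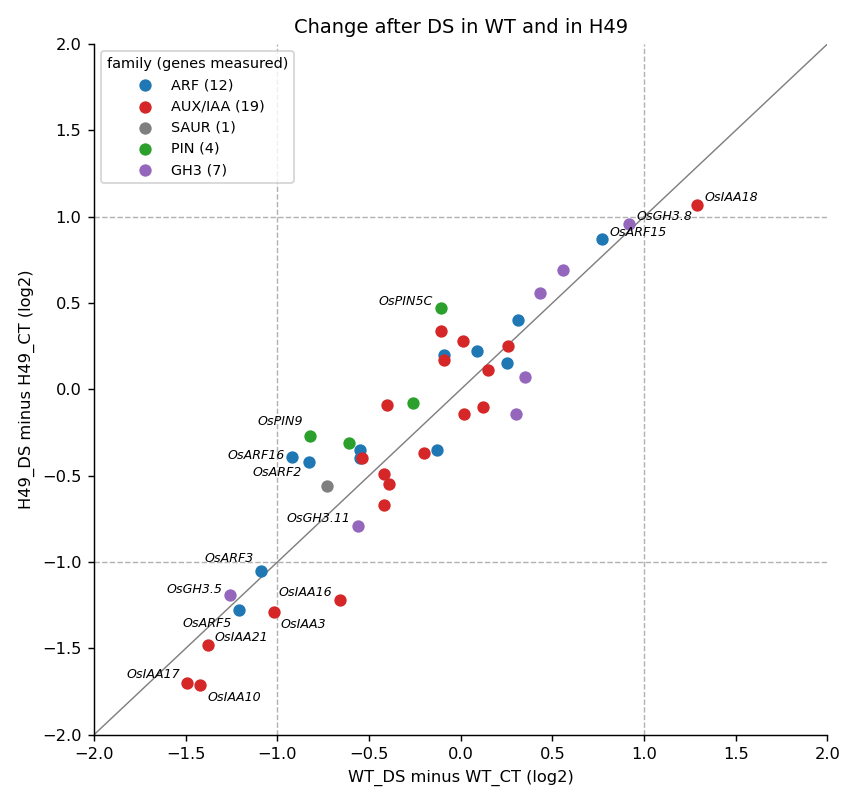
Difference after DS (log2 scale) of each of the 43 auxin genes in WT (x axis) and in H49 (y axis), coloured by family. Dashed lines mark a 2-fold difference and the solid line marks equal values. *OsIAA16* is past 2-fold in H49 alone.

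*GH3* genes, which encode enzymes of conjugation, went different ways. Of 7 measured, 1 fell in each genotype (14.3%, against 8.47% of all genes in WT and 9.3% in H49). None rose, against 4.93% and 5.26% of all genes. The median difference was 0.35 in WT and 0.07 in H49. The fallen gene, *OsGH3.5*, is also listed as *JAR1*, whose product joins jasmonate and not auxin to isoleucine. It had 7.90, 8.06 and 7.69 in WT_CT and 6.12, 6.69 and 7.06 in WT_DS, and 7.86, 7.93 and 7.96 in H49_CT and 6.61, 6.81 and 6.77 in H49_DS. DS arrays were below control arrays throughout, and WT_DS spread most (SD 0.48). *OsGH3.5* fell by 1.26 in WT, a fold of 2.40 (standard error 0.22, adjusted p = 0.0011), while in H49 it fell by 1.19, a fold of 2.28 (adjusted p = 0.0015). With centred arrays its value in H49 was -0.97 and was not called, so that on that scale 1 *GH3* gene rose and none fell in H49.

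*OsGH3.8*, which joins IAA to amino acids, had 5.82, 4.69 and 5.61 in WT_CT and 6.11, 6.27 and 6.50 in WT_DS, and 5.43, 5.49 and 5.50 in H49_CT and 6.56, 6.37 and 6.36 in H49_DS. All DS arrays were above all control arrays, and WT_CT replicate 2 was low. The difference of 0.92 in WT and 0.96 in H49 (standard error 0.25, adjusted p = 0.015 and 0.011) stayed under 2-fold. It was past 2-fold and called with centred arrays (1.13 in WT and 1.18 in H49). In WT it was also called without WT_CT replicate 1 (1.14), WT_CT replicate 3 (1.04) or WT_DS replicate 1 (1.01), and it was 0.58 with WT_CT replicate 2 left out. *OsGH3.1* and *OsGH3.2*, for further enzymes of IAA conjugation, were at 0.62 and 0.50 over both genotypes (adjusted p = 0.025 and 0.04). *OsGH3.11* was at -0.68 (standard error 0.14, adjusted p = 0.0017), and its H49 arrays did not overlap between treatments. *OsGH3.6* and *OsGH3.7* were at 0.08 and 0.21.

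None of the 4 *PIN* genes measured was called. Of all genes, 8.47% fell and 4.93% rose in WT, and 9.3% and 5.26% in H49. *OsPIN3A*, *OsPIN5C* and *OsPIN9* were dim, with means over all arrays of 4.58, 3.58 and 2.85. The lack of a call therefore does not show that these genes did not respond to DS. *OsPIN5A*, with the brightest probe set of the family, had 5.48, 5.56 and 5.91 in WT_CT and 4.53, 5.56 and 5.02 in WT_DS, and 5.90, 6.22 and 5.33 in H49_CT and 5.37, 5.71 and 5.45 in H49_DS. These groups overlapped, and the difference was -0.61 in WT and -0.31 in H49 (adjusted p = 0.12 and 0.44). *OsPIN9*, an auxin exporter gene of the grasses, had 4.37, 2.81 and 2.91 in WT_CT and 2.75, 2.49 and 2.39 in WT_DS, and 2.94, 2.81 and 2.89 in H49_CT and 2.87, 3.18 and 1.78 in H49_DS. Single arrays set its values: WT_CT replicate 1 was high and H49_DS replicate 3 low, and its pooled SD of 0.58 was the highest of the 43 genes. Its difference was -0.82 in WT (adjusted p = 0.14) and lay between -1.10 and -0.32 with single arrays left out. *OsPIN3A*, also listed as *OsPIN3t* and known from drought tolerance of rice over-expressing it, was at -0.17 over both genotypes (standard error 0.21, adjusted p = 0.53).

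*OsSAUR39*, a repressor of auxin synthesis and transport in rice, had 5.65, 4.81 and 5.21 in WT_CT and 4.07, 4.98 and 4.43 in WT_DS, and 5.32, 4.67 and 5.42 in H49_CT and 4.59, 4.75 and 4.40 in H49_DS. A control array and a DS array overlapped in each genotype. The difference was -0.73 in WT and -0.56 in H49 (adjusted p = 0.071 and 0.16), and over both genotypes -0.64 (adjusted p = 0.018), a fold of 1.56.

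Other genes of the pathway were taken from a list of perception, co-repression, synthesis, conjugate hydrolysis and transport control, of which 9 were measured. None rose or fell in WT, where 4.93% of all genes rose and 8.47% fell. In H49 1 rose and none fell, against 5.26% and 9.3% of all genes. The risen gene was *ILL7*, which encodes a hydrolase of IAA conjugates, with a difference of 1.0 in H49 (adjusted p = 0.0067) and 0.83 in WT (adjusted p = 0.02). *ILL5*, of the same family, was at -1.0 in WT (adjusted p = 0.015) and -0.62 in H49, and was not called. Both genes sat at the 2-fold limit: before rounding *ILL7* reached it in H49 and *ILL5* fell just short of it in WT. The co-repressor gene *TPR2* was at -0.38 over both genotypes (adjusted p = 0.017) and *TPR3* at -0.10. *FIB*, for a tryptophan aminotransferase of IAA synthesis, was at -0.08 and *OASA2*, for a subunit of anthranilate synthase, at 0.10. *PID*, for a kinase that acts on PIN proteins, was at -0.77 in WT (adjusted p = 0.019) and -0.02 in H49, and the difference between these responses, 0.74 (standard error 0.31), did not pass its test (adjusted p = 1).

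Between genotypes, none of the 43 auxin genes was called, without stress, after DS, over both treatments or in the response to DS, and the same held for 0% of all 15140 genes. Unadjusted limma p-values under 0.05 were found for 0 of the 43 without stress, 1 after DS, 1 over both treatments and 1 in the response. Among all 15140 genes the same counts were 290, 733, 604 and 360. The smallest adjusted p among the 43 was 0.97 over both treatments. Over both treatments the differences of the 43 genes lay between -0.21 and 0.61 with a median of 0.02, and the 95% interval lay within 2-fold for 42 of them. The median half-width of these intervals was 0.35 over both treatments and 0.70 for the response.

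The remaining gene was *OsARF16*, with 0.61 over both treatments, a 95% interval from 0.20 to 1.02 and an unadjusted p of 0.0071, which did not pass the adjustment (adjusted p = 0.97). H49 minus WT was 0.87 after DS and 0.34 without stress. These were not shown to differ, since the H49 response minus the WT response was 0.53, with a 95% interval from -0.29 to 1.35 and an adjusted p of 1. The H49_DS array with the lowest value, 5.31, lay just below the highest WT_DS array, 5.35. Next by unadjusted p were *OsPIN5A*, at 0.32 (95% interval -0.10 to 0.74), and *OsIAA2*, at 0.27 (95% interval -0.08 to 0.62), whose values were 6.90, 6.86 and 6.30 in WT_CT, 6.73, 6.84 and 6.56 in WT_DS, 6.73, 7.4 and 6.98 in H49_CT, and 6.59, 6.95 and 7.14 in H49_DS. These overlapped between genotypes in both treatments. Among the responses, *OsPIN5C* had the smallest unadjusted p, 0.05, with -0.11 in WT and 0.47 in H49. The difference of the responses was 0.57 (95% interval 0.00 to 1.15, adjusted p = 1).

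**Figure D5:**
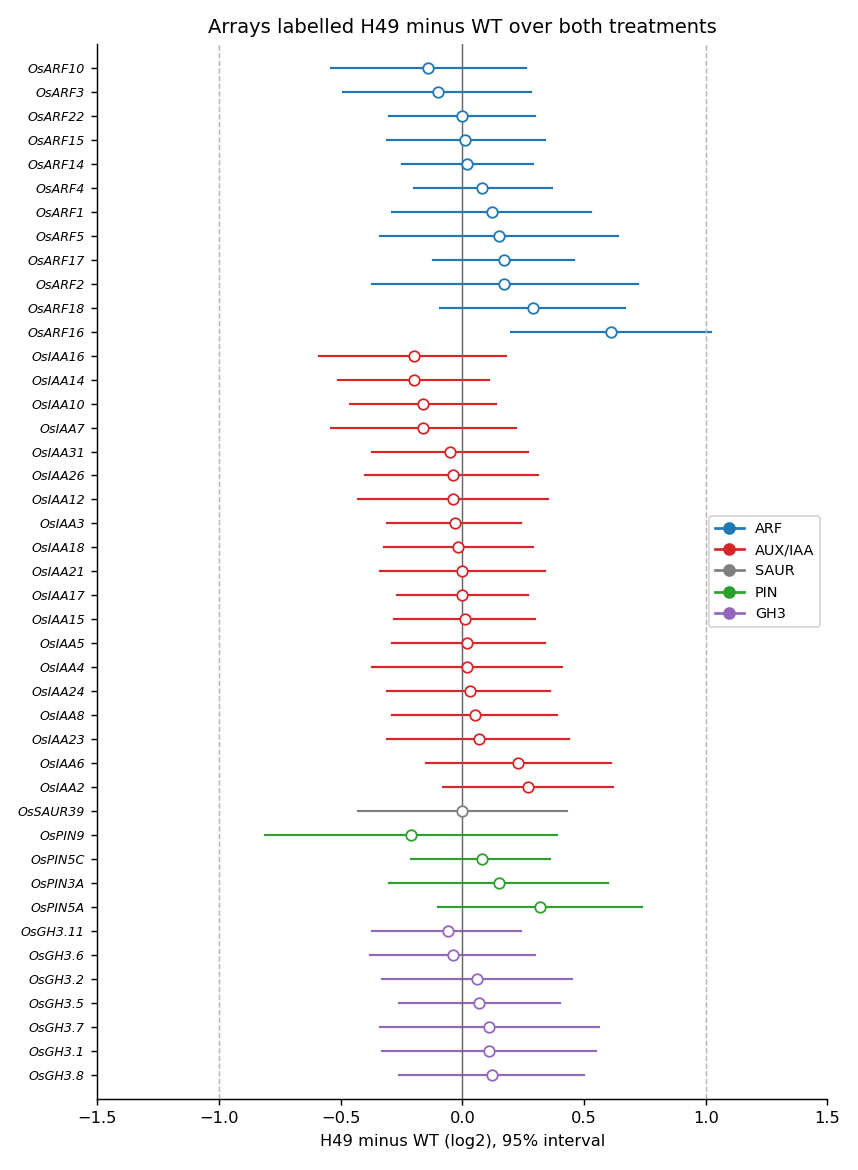
Arrays labelled H49 minus WT (log2 scale, 95% interval) for the 43 auxin genes over both treatments, ordered within families. Dashed lines mark a 2-fold difference. The interval of *OsARF16*, from 0.20 to 1.02, is the one that reaches past 2-fold.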

How the data were processed

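The authors normalized the 12 Affymetrix arrays by RMA and deposited log2 values, 1 per probe set and array, which were used without further scaling. Per the labels, 500 ng of RNA went into a 3' IVT PLUS kit, where the methods name the WT PLUS kit. Probe sets (54922) were joined to RefSeq genes through the platform's gene table: 15829 carried 1 gene, 440 carried several, and the other 38653 have no name here. For each of 15140 genes the probe set of highest mean that was its own was read. Some *ARF*, *IAA* and *PIN* names stand for different genes in different sources (*OsARF1*, *OsARF4*, *OsARF18*, *OsIAA4*, *OsIAA5*, *OsPIN5A*, *OsPIN5C* and *OsPIN9* carry a second number there), and 1 name per gene was kept. No genome was used, so that no positions are given.

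Group means were fitted to all 12 arrays with limma 3.58.1 in R 4.3.3 (lmFit and eBayes), and p-values were adjusted by Benjamini-Hochberg over all 15140 genes in each of 7 comparisons. Precision is limited by the 3 arrays per group (median standard error 0.23 on the log2 scale between groups). Tested on simulated data of the comparison of WT_DS with WT_CT, 15140 genes in all, the fit passed 25 of 50 genes changed 2-fold and 48 of 50 changed 4-fold. The simulation changed 50 genes at each fold, whereas in the data 5765 genes had an unadjusted limma p under 0.05 in this comparison. It also scored the adjusted p alone, without the 2-fold minimum. Its passing rates are therefore not those of the calls after DS. Named were genes called after DS, the brightest and the 2 most changed of each family, the 3 with the smallest p between genotypes, the 3 with the largest spread, and genes whose probe sets differed by more than 1 in their DS difference; others are given by values or ranges, or were named after their values had been seen. The members and lists were chosen with earlier results of these data known. Alternatives covered scaling, a filter on dim genes, probe sets, variance model, fold minimum, Student's t-test, a replicate block and arrays left out. Python 3.11.15, pandas 2.3.3, numpy 2.4.6 and matplotlib 3.10.9 made tables and figures.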

Additional observations from a re-analysis of the deposited data

How the results depend on the processing

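Risen genes numbered 2 in WT, 3 in H49 and 3 over both genotypes with centred arrays, and 2, 3 and 2 with quantile normalization. Over both genotypes these were 6.98% and 4.65% of the auxin genes, against 7.09% and 6.05% of all genes. They numbered 3, 3 and 5 with no fold minimum, and 3, 3 and 4 with a fold of at least 1.5. With no fold minimum, the risen share over both genotypes was 11.6% of the auxin genes and 15.3% of all genes. With replicate number 1 omitted in all groups 3 rose in WT and 2 over both genotypes. Fallen genes over both genotypes numbered 15 with no fold minimum (34.9%, against 26.9% of all genes) and 11 with a fold of at least 1.5. Shares of all genes are not given for the other settings of this paragraph. Those counts therefore do not set the auxin genes apart from other genes. By Student's t-test after Benjamini-Hochberg adjustment 4 fell in WT, without *OsARF3*, *OsARF5* and *OsGH3.5*, and 5 in H49, without *OsARF3*, *OsARF5* and *OsIAA16*. At its unadjusted threshold 7 and 8 fell. With single arrays left out 1 to 2 rose in WT, 0 to 1 in H49 and 1 to 2 over both genotypes, while 5 to 8, 7 to 8 and 6 to 8 fell. No setting called any of the 43 genes between genotypes.

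Of 533 alternative values of called genes 504 kept their direction and call, 29 lost the call and 0 changed sign. Many of these alternatives could not change the difference, such as leaving out an array of the other genotype, another variance model or the replicate block. They could change the p alone, so that the 504 is no measure of how firm the calls are. The signs that did change belonged to genes that were not called. *OsIAA2* was at 0.07 in H49 and 0.15 over both genotypes with centred arrays, and at 0.07 over both genotypes with quantile normalization. With single arrays left out it ran from -0.17 to 0.13 in WT, from -0.29 to 0.04 in H49 and from -0.16 to 0.03 over both genotypes. *OsIAA5* was at 0.20 in WT, 0.13 in H49 and 0.16 over both genotypes with the mean of its probe sets, by construction of that mean. *OsARF4* was at -0.06 in H49 with replicate number 1 omitted, and *OsPIN9* ran from -0.56 to 0.15 in H49 with single arrays left out. The cause was not tested.

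The replicate numbers were not taken as pairing the arrays: of 18 pairs of arrays with the same number 13 had deviations that correlated above 0.1 (range -0.195 to 0.395), and 10 of 12 arrays correlated best with their own number, a hint from the data and not from the design. With the replicate block 7 fell and 1 rose in WT, 8 and 1 in H49, and 7 and 1 over both genotypes, as without it.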
